A study of Mus musculus with 12 samples.

Results

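Aminoacyl-tRNA synthetases are the enzymes that join each amino acid to its tRNA, and their transcripts were followed in mouse cumulus cells with and without the mitochondrial protease ClpP. A list of 36 synthetase gene symbols was looked up in the deposited gene table, and all 36 were found among its 23997 rows. Of these, 20 encode the cytosolic enzymes and 16, with symbols ending in 2, encode the mitochondrial enzymes. The donors were C57BL/6J females, ClpP-/- (KO) or wild type (WT), aged 3 or 6 months, and the 4 groups had 3 libraries apiece, which carry the numbers 1 to 3. All donors, WT as well as KO, were given pregnant mare serum gonadotropin (5 IU), a hormone that stimulates follicle growth. The interval to collection is 44 h in the treatment protocol but 48 h in the series design. By that design a library pools 100 cumulus cells from 1 mouse. Expression is in FPKM, fragments per length of gene model and per mapped fragments of the library.

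Cumulus cells are cells of the granulosa lineage, which enclose the oocyte and feed it through cell contacts. Cytosolic synthetases charge tRNAs for translation of nuclear mRNAs. Mitochondrial synthetases are also made from nuclear genes but are imported into the matrix, where they charge the tRNAs that translate the few mRNAs of the mitochondrial genome. ClpP works in that same matrix as the proteolytic subunit of the ClpXP protease. Many cytosolic synthetase genes are known targets of ATF4, the transcription factor of the integrated stress response, which also drives amino acid synthesis and uptake, whereas the mitochondrial synthetases are not usually counted among its targets.

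Clpp itself checked the labels: it lay between 88.2 and 146 FPKM in the 6 WT libraries and between 0.769 and 6.63 FPKM in the 6 KO libraries. Markers of granulosa and cumulus cells (Inha, Inhbb, Fshr, Amh, Foxl2, Nr5a2 and Esr2) summed to between 2693 and 6584 FPKM per library, and all 7 averaged at least 1 FPKM in each group. Theca and stromal markers summed to 1197 FPKM in 3-month KO library 3 and 1467 FPKM in 6-month KO library 3, against at most 152 FPKM in the other 10. The sum of blood and leukocyte markers was highest in the library numbered 3 of every group. It was 739 (3-month WT), 686 (3-month KO), 1299.7 (6-month WT) and 464 FPKM (6-month KO), and at most 27.5 FPKM elsewhere. In 3-month WT library 3 it was nearly all Hbb-b1 (448 FPKM) and Hba-a1 (283 FPKM), with Lyz2 at 4.72, Cd68 at 2.83 and Ptprc at 0 FPKM. Those globin genes also made up most of it in 3-month KO library 3 and 6-month WT library 3, and Lyz2 (397 FPKM) did in 6-month KO library 3. The sum of oocyte markers was highest in 3-month KO library 3 (42.6 FPKM) and 6-month KO library 3 (188 FPKM), against at most 13.8 FPKM elsewhere. In 6-month KO library 3 it was mostly H1foo (124 FPKM), Ooep (43.1 FPKM) and Zp3 (16.8 FPKM). Zp1 was 0, Zp2 0.111 and Gdf9 1.48 FPKM there, so not all oocyte markers were high. Small RNA entries of 3-month KO library 3 and 6-month KO library 3 also took a large share of the FPKM sum, 31.96% and 37.5%. So did those of 3-month WT library 1 (25.7%), while the other 9 libraries had at most 6.81%. The table gives no read totals, but the spacing of its values under 0.2 FPKM put the depth of the libraries between 0.64 and 1 of the deepest, with 6-month WT library 3 the shallowest.

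Cytosolic synthetase transcripts were the more abundant class. All 20 reached at least 1 FPKM in all 12 libraries, and their means over the 12 libraries ran from 9.26 FPKM for Vars, the valine enzyme, to 89.6 FPKM for Dars, the aspartate enzyme, with a median of 27.2 FPKM. Mitochondrial synthetases ran from 0.955 FPKM for Pars2, the proline enzyme, to 33.3 FPKM for Fars2, the phenylalanine enzyme, with a median of 7.07 FPKM. Only 10 of the 16 reached 1 FPKM in every library. Vars2 did so in 5 libraries, Mars2 and Pars2 in 6 and Aars2 in 7, and Ears2 and Nars2 in 11. Values under 1 FPKM rest on few reads, and without counts their error cannot be given. At the lower end, Pars2 ranged from 0 to 1.93 FPKM, with group means of 1.30, 1.12, 0.684 and 0.718 FPKM in 3-month WT, 3-month KO, 6-month WT and 6-month KO. At the upper end, Fars2 ranged from 22.3 to 44.8 FPKM, with group means of 30.02, 37.2, 29.6 and 36.4 FPKM in that order. Neither gene had groups that stood apart. All 36 members had at least 1 FPKM in at least 3 libraries and were tested.

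Within an amino acid, the cytosolic gene usually stood above its mitochondrial partner. Of 17 pairings (Eprs, a bifunctional enzyme for glutamate and proline, was paired with Ears2 and with Pars2, and Fars2 with each subunit of the cytosolic phenylalanine enzyme), 9 had the cytosolic gene higher in all 12 libraries. The median ratio of mean levels was 3.56. The widest gaps were Eprs over Pars2, at 56.3 against 0.955 FPKM, and Nars over Nars2, the asparagine enzymes, at 66.4 against 4.25 FPKM. In 3 pairings the mitochondrial gene had the higher mean: Lars2 over Lars, the leucine enzymes, at 20.6 against 16.2 FPKM, Yars2 over Yars, the tyrosine enzymes, at 25.1 against 22.1 FPKM, and Fars2 over Farsa, the alpha subunit of the cytosolic phenylalanine enzyme, at 33.3 against 29.7 FPKM. The order of the leucine pair differed by age: Lars was the higher in all 3 libraries of each 3-month group, but in 1 of 3 in 6-month WT and 0 of 3 in 6-month KO. Other pairs also shifted. Iars stood above Iars2, the isoleucine enzymes, in 3 libraries of 3-month WT, 2 of 3-month KO and 1 of each 6-month group. Yars stood above Yars2 in 1 library of 3-month WT, 2 of 3-month KO and 0 of each 6-month group. Farsb, the beta subunit of the cytosolic phenylalanine enzyme, averaged 66.9 FPKM. No mitochondrial partner was listed for Gars and Kars, the glycine and lysine enzymes, since each of these genes is known to encode both the cytosolic and the mitochondrial form, and the gene-level FPKM does not separate the forms.

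**Figure D1:**
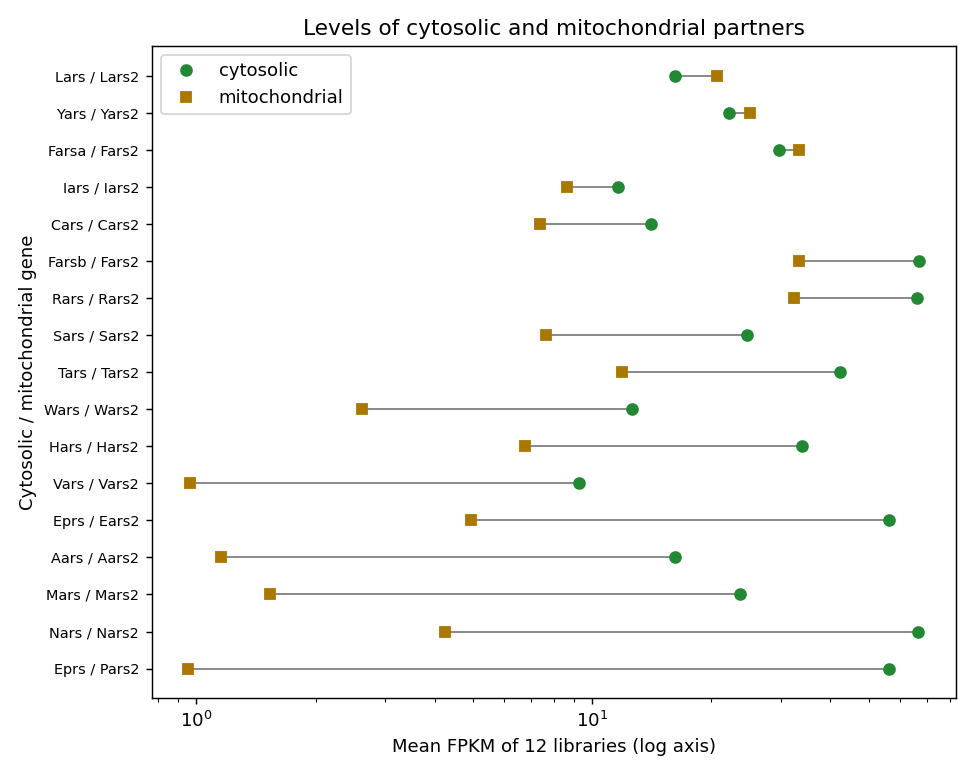
Mean FPKM over 12 libraries (horizontal log axis) of each cytosolic synthetase gene (circle) and its mitochondrial partner (square), joined by a line, for 17 pairings (vertical axis). Circles lie to the right of squares except for Lars and Lars2, Yars and Yars2, and Farsa and Fars2.

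Cytosolic synthetases were spread unevenly over libraries. For 19 of the 20 genes the highest of the 12 values lay in a 3-month library, 11 of them in KO library 2 of that age and 6 in WT library 1. For 16 of the 20 the lowest value lay in a 6-month library, 12 of them in 6-month WT library 3. That library was also the shallowest by the spacing of low values. Counts of highest and lowest values were not made over all genes tested. Whether those given here and below are particular to synthetases was therefore not tested. The summed FPKM of the 20 in libraries 1, 2 and 3 was 1249, 948 and 632 for 3-month WT, 909, 1167 and 737 for 3-month KO, 684, 560.5 and 433 for 6-month WT, and 638, 635 and 549 for 6-month KO. Library 3 had the lowest sum in every group. It was also the library of each group with the highest sum of blood and leukocyte markers, which in 3-month WT was nearly all globin transcripts. Whether other cells in those libraries had a part in their lower synthetase sums was not tested. In pools of cells, fewer cells of a type and less RNA per cell cannot be told apart. Mitochondrial synthetases showed less of an order by age, with the highest value in a 3-month library for 12 of 16 genes and the lowest in a 6-month library for 10 of 16.

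**Figure D2:**
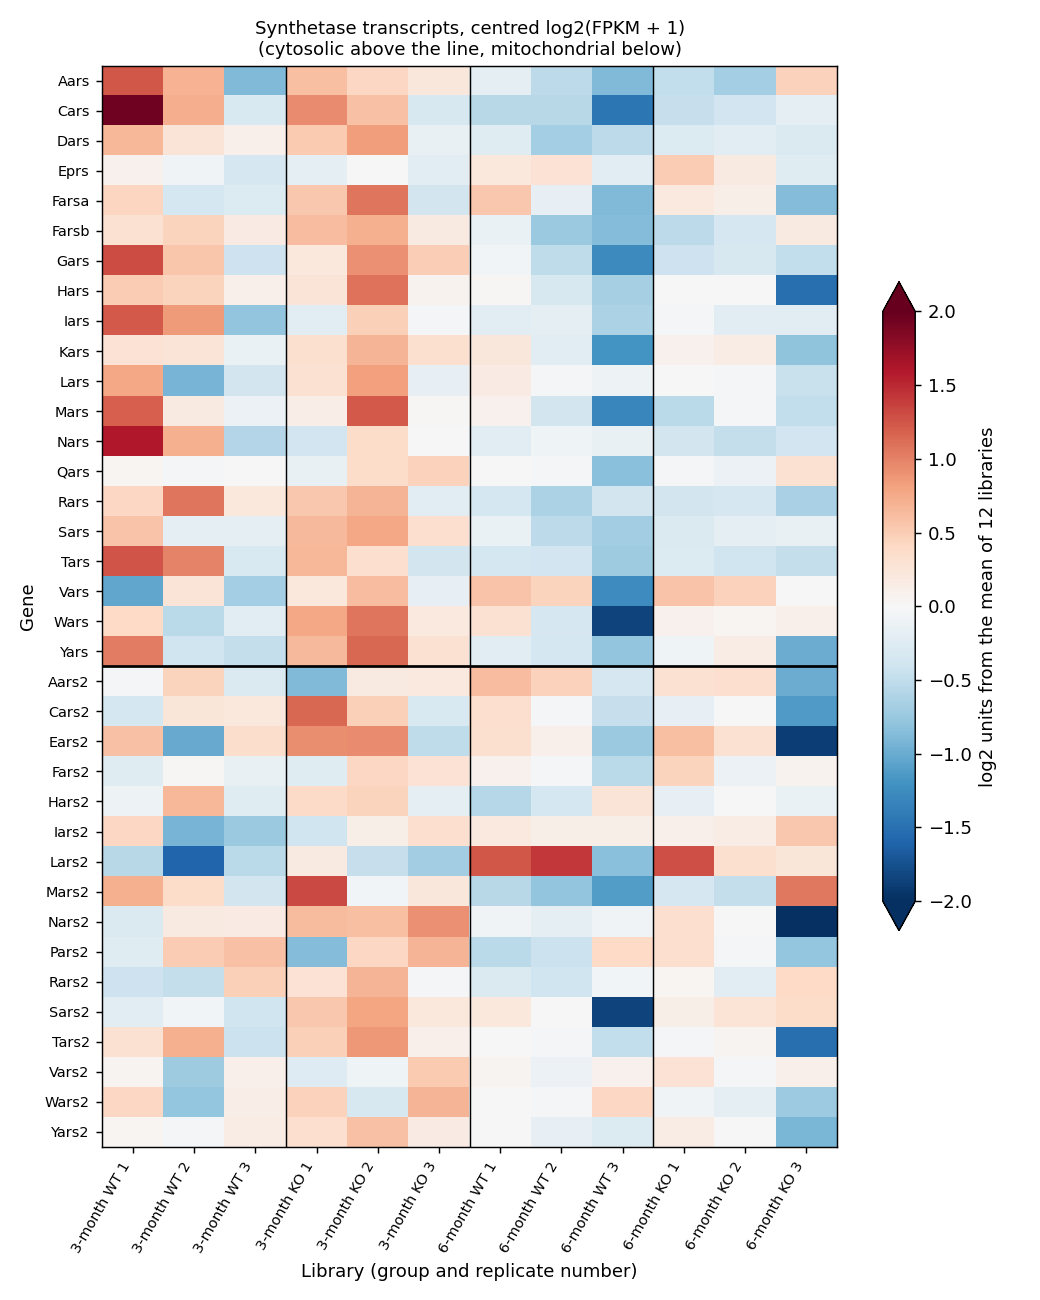
Centred log2(FPKM + 1) of the 20 cytosolic genes (above the line) and the 16 mitochondrial genes (below it) in rows and the 12 libraries in columns, with colour for log2 units from the gene's mean over all libraries. Cytosolic genes are mostly red in 3-month WT library 1 and 3-month KO libraries 1 and 2 and blue in many 6-month columns, with 6-month WT library 3 the lowest for 12 of 20, while 3-month WT library 3 is mostly blue and Lars2 is red in 6-month WT libraries 1 and 2.

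The comparison of 6 with 3 months asks how synthetase transcripts differ with age, within each genotype. Differences below are from limma on log2(FPKM + 1), with p-values adjusted by Benjamini and Hochberg over the 11196 genes tested and a threshold of 0.05. No synthetase gene passed in either genotype, where 0.00893% of all genes passed in WT and 0.0179% in KO. The smallest adjusted p of a member was 0.664 in WT and 0.745 in KO. In WT 17 of 20 cytosolic genes lay below 0 (median log2 difference -0.71), while the median of all genes tested was 0.03 and 51.9% of them lay above 0. In KO 18 of 20 lay below 0 (median -0.64), against a median of 0.01 and 50.8% above 0 for all genes. At an unadjusted p under 0.05 there were 6 cytosolic and 1 mitochondrial genes in WT, where 7.44% of all genes were, and 7 and 2 in KO, where 6.48% were. Values did not overlap and were lower at 6 months for 6 of 20 cytosolic genes in WT (30%), where 7.81% of all genes tested did so, and for 10 of 20 in KO (50%), where 5.98% did so. No cytosolic gene was apart and higher, against 7.94% of all genes in WT and 6.82% in KO. These counts and medians describe the class, and no test of the class was made. The 2 age comparisons share no library.

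Dars, Farsb, Hars and Rars were lower at 6 months without overlap in both genotypes, which is 4 of the 6 in WT and 4 of the 10 in KO. The share of all genes tested that were so in both genotypes was not computed, so this count has no background to be set against. Rars, the arginine enzyme, had 3-month WT values of 81.8, 129.7 and 70.8 FPKM in libraries 1, 2 and 3, and 6-month WT values of 47.8, 39.1 and 47.6 FPKM. Every 6-month library was below every 3-month library, with means of 94.1 ± 31.3 and 44.8 ± 4.93 FPKM (SD, n = 3). The log2 difference was -1.01 (SE 0.30, adjusted p = 0.664). In KO, Rars stood at 89.9, 99.3 and 52.6 FPKM at 3 months and at 47.6, 48.4 and 38.8 at 6 months, again without overlap (log2 difference -0.78, SE 0.30, adjusted p = 0.745). Farsb stood at 78, 86.2 and 71.1 FPKM in 3-month WT and at 57.5, 37.4 and 34.4 in 6-month WT (log2 difference -0.88, SE 0.28, adjusted p = 0.664). In KO it stood at 97.5, 104 and 71.7 FPKM at 3 months and at 43.7, 49.9 and 71.6 at 6 months, so that the libraries numbered 3 were all but level and the separation there is nominal. Dars stood at 135, 102 and 91.5 FPKM in 3-month WT and at 71.6, 52.4 and 59.1 in 6-month WT (log2 difference -0.83, SE 0.28, adjusted p = 0.664). Its 6-month KO libraries lay close together, at 70.3, 72.4 and 69.3 FPKM, under 122, 153 and 76.5 at 3 months. Hars, the histidine enzyme, averaged 40.4 ± 6.09 FPKM in 3-month WT and 25.2 ± 6.17 in 6-month WT, and 46 ± 18.7 and 24.4 ± 12.2 FPKM in KO (SD, n = 3). In GENCODE M21, some members share exonic sequence with another protein-coding gene, all on the opposite strand except Aars with Exosc6. They are Aars, Cars2 (with Naxd), Ears2 (Ubfd1), Fars2 (Lyrm4 and Nrn1), Farsb (Sgpp2), Hars and Hars2 (with each other), Iars2 (Rab3gap2), Mars (Ddit3) and Yars (C77080). The counting is not stated to use strand, so reads of such pairs cannot be told apart where they overlap, and the levels of these genes are uncertain to that extent.

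Cars and Tars, the cysteine and threonine enzymes, were apart in WT alone, and the difference between genotypes is tested further on. Cars stood at 46.5, 19.4 and 8.97 FPKM in 3-month WT and at 7.37, 7.36 and 3.53 in 6-month WT, the lowest log2 difference of the 36 members (-1.64, SE 0.52, adjusted p = 0.664). Its 3-month values spanned a wide range, with library 1 far above library 3. Tars stood at 93, 76.7 and 30.7 FPKM in 3-month WT and at 29.8, 28.9 and 22.9 in 6-month WT, with library 3 of the younger group just above the older group. In KO, Sars, the serine enzyme, had the smallest p among the cytosolic genes, with 37.2, 40.8 and 29.8 FPKM at 3 months and 19, 20.6 and 21 FPKM at 6 months (log2 difference -0.79, SE 0.28, adjusted p = 0.745). All 3 of the younger libraries were above all 3 of the older ones, and the means were 35.9 ± 5.59 and 20.2 ± 1.06 FPKM (SD, n = 3). Gars, Kars, Mars, Wars and Yars, the glycine, lysine, methionine, tryptophan and tyrosine enzymes, were the other genes apart in KO.

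**Figure D3:**
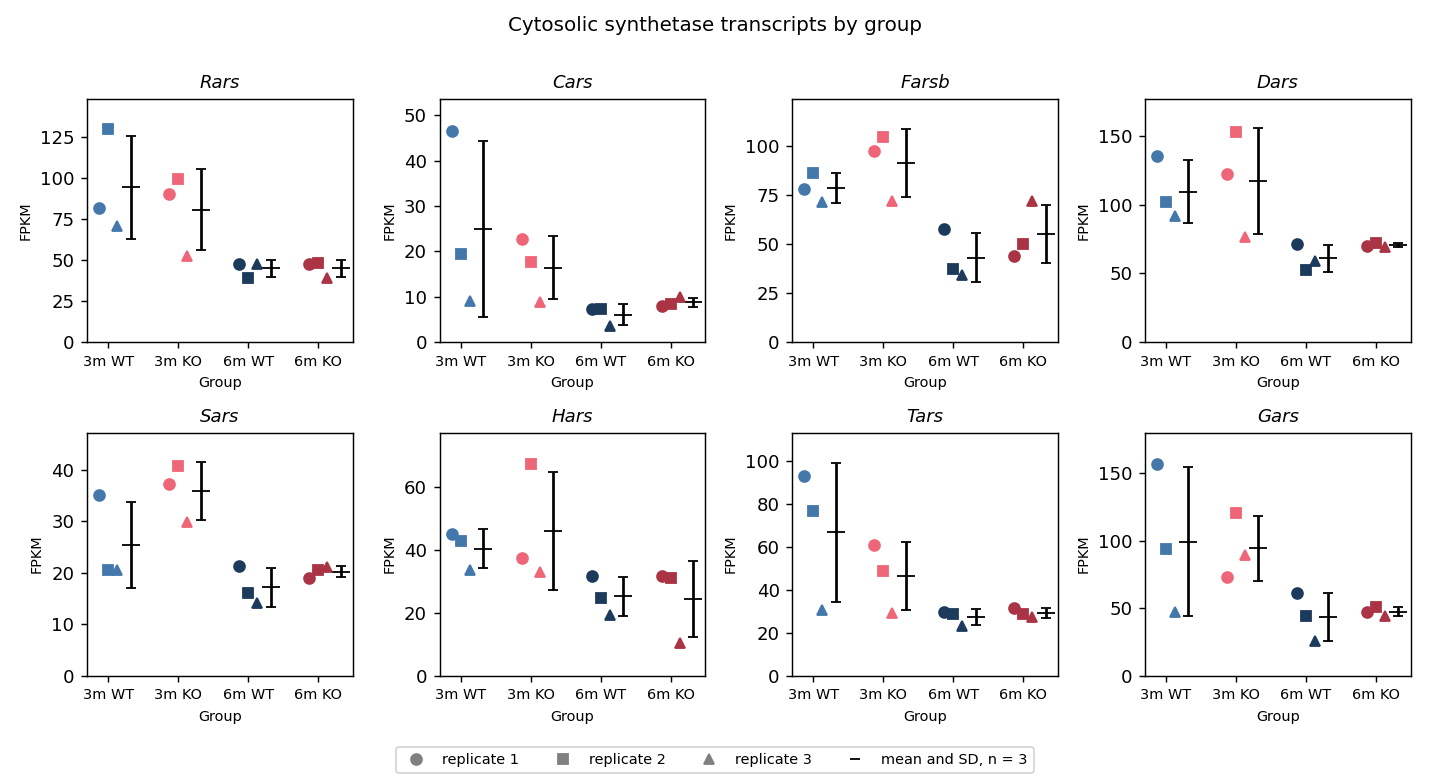
FPKM (vertical axes, from 0) of 8 cytosolic synthetase genes in each library by group (horizontal axes, 3m and 6m for 3 and 6 months), with symbols for replicate number and a bar with whiskers for the mean and SD, n = 3. Rars, Dars and Tars sit lower and closer together in the 6-month groups, as with Rars at 38.8 to 48.4 FPKM in 6-month KO and 52.6 to 99.3 FPKM in 3-month KO.

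Eprs and Vars were the exceptions in both genotypes. Eprs averaged 51.7 ± 7.74 FPKM in 3-month WT and 59.9 ± 10.9 in 6-month WT, and 50.5 ± 4.21 and 62.9 ± 16.4 FPKM in KO (SD, n = 3). Vars, the least abundant cytosolic gene, measured 3.6, 10.3 and 4.9 FPKM in 3-month WT, 9.96, 13.6 and 7.46 in 3-month KO, 13.02, 11.8 and 2.95 in 6-month WT, and 12.98, 12.1 and 8.47 in 6-month KO. Groups overlapped in each case. Lars was the remaining gene above 0 in WT (log2 difference 0.18, SE 0.41), and it lay below 0 in KO (-0.47, SE 0.41). Eprs is 1 of the 8 cytosolic enzymes that are held in the multisynthetase complex, a large assembly with the enzymes for arginine, aspartate, glutamine, isoleucine, leucine, lysine and methionine. The 8 had a median log2 difference of -0.65 in WT and -0.55 in KO, and the 12 enzymes outside the complex had medians of -0.71 and -0.69.

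Removing libraries changed the size of the cytosolic age difference but not its side. The WT median was -0.41 without 3-month WT library 1, with 16 of 20 genes below 0, and the lowest in magnitude for KO was -0.48, without 3-month KO library 2, with 18 of 20 below 0. Without the 3 libraries highest in markers of other cells (3-month KO library 3, 6-month WT library 3 and 6-month KO library 3) the median was -0.53 in WT (15 of 20 below 0) and -0.85 in KO (18 of 20 below 0). Values were then apart and lower at 6 months for 6 of 20 cytosolic genes in WT, where 16.4% of all genes tested were, and for 15 of 20 in KO, where 24.8% were. In that alternative 3-month WT library 3 was kept. It had sums of 739 FPKM for blood and leukocyte markers, nearly all globin, and 152 FPKM for theca and stromal markers.

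Mitochondrial synthetases leaned the same way with age by smaller amounts. In WT 11 of 16 lay below 0 (median log2 difference -0.10) and in KO 12 of 16 (median -0.29, and -0.16 without 3-month KO library 2). The WT lean turned without 6-month WT library 3, to a median of 0.09 with 7 of 16 below 0. Mars2, the methionine enzyme, was the only one apart and lower in WT (6.25%, against 7.81% of all genes), at 2.65, 1.88 and 0.725 FPKM at 3 months and 0.518, 0.296 and 0.029 FPKM at 6 months (log2 difference -1.06, SE 0.50, adjusted p = 0.664). All its 6-month WT values were under 1 FPKM. Lars2, the mitochondrial leucine enzyme, went the other way, at 11.1, 4.92 and 11.2 FPKM in 3-month WT and 40.9, 46.4 and 8.92 FPKM in 6-month WT (log2 difference 1.501, SE 0.57, adjusted p = 0.664). Library 3 of the older group stood within the younger group's range, and the other libraries lay far above the younger group's mean of 9.05 FPKM. In KO the Lars2 groups did not overlap, at 19, 11.8 and 9.95 FPKM at 3 months and 42.3, 21 and 19.9 FPKM at 6 months (log2 difference 0.94, SE 0.57, adjusted p = 0.757).

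In KO, Nars2, Tars2 and Yars2 were apart and lower at 6 months, 3 of 16 (18.75%, against 5.98% of all genes). Nars2 stood at 6.32, 6.23 and 7.89 FPKM at 3 months and at 4.96, 3.75 and 0.0207 at 6 months (log2 difference -1.34, SE 0.54, adjusted p = 0.745). Library 3 at 6 months was nearly at 0. That library had high sums of theca, leukocyte and oocyte markers, whose part in the value was not tested. The same library held the lowest of 12 values for 6 of the 16 mitochondrial genes. Without it the log2 difference for age in KO was -0.55 for Nars2, -0.48 for Tars2, -0.29 for Yars2 and -0.52 for Cars2, against -1.34, -0.98, -0.62 and -0.87 with it. Tars2, the threonine enzyme, stood at 15.7, 20.8 and 11.8 FPKM at 3 months and at 10.6, 11.4 and 3.23 at 6 months, and Cars2, the cysteine enzyme, at 16.3, 9.87 and 5.3 FPKM and then 5.96, 6.84 and 2.56. Yars2 averaged 31.9 ± 4.79 FPKM at 3 months and 21.3 ± 7.75 at 6 months (SD, n = 3).

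**Figure D4:**
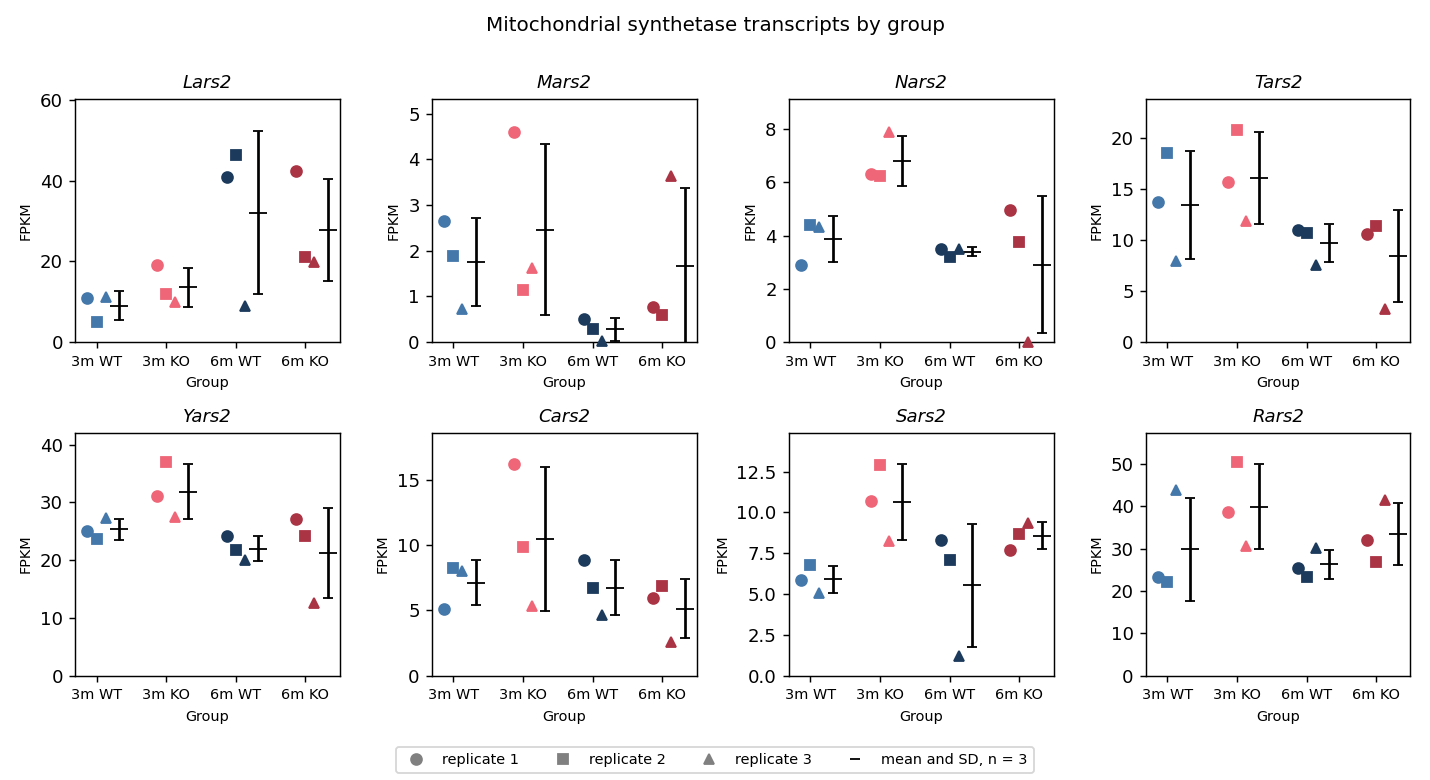
FPKM (vertical axes, from 0) of 8 mitochondrial synthetase genes in each library by group (horizontal axes, 3m and 6m for 3 and 6 months), with symbols for replicate number and a bar with whiskers for the mean and SD, n = 3 (the lower whisker of Mars2 in 6-month KO is cut at 0). Lars2 reaches 40.9 and 46.4 FPKM in 2 of the 6-month WT libraries, and Nars2 lies at 6.23 FPKM or above in 3-month KO and at 4.39 or below in 3-month WT.

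The comparison of KO with WT asks how loss of ClpP affects these genes, at each age. No synthetase passed at 3 months, where 0.00893% of all genes did, or at 6 months, where 0.0268% did. The gene that passed at 3 months was Clpp itself (log2 difference -5.03, SE 0.54, adjusted p = 0.0087). It kept that call in 11 of 16 alternatives, with an adjusted p of up to 0.108. Clpp passed at 6 months as well (log2 difference -5.25, SE 0.54, adjusted p = 0.0028). The smallest adjusted p of a member was 0.768 at 3 months and 0.9998 at 6 months. At an unadjusted p under 0.05 there was no member at either age, against 6.8% of all genes at 3 months and 1.22% at 6 months. At 3 months 14 of 16 mitochondrial genes lay above 0 (median log2 difference 0.33), where 51.2% of all genes tested lay above 0 with a median of 0.01. With 1 library left out, 11 of 16 did so without 3-month WT library 2 or library 3, and 15 of 16 without 3-month KO library 1. The mitochondrial median then ran from 0.27 to 0.40. Cytosolic genes lay above 0 in 14 of 20 cases with a median of 0.09, and that median ran from -0.03 without 3-month WT library 3 to 0.31 without 3-month WT library 1, with 9 and 17 of 20 above 0. It was -0.02 without 3-month KO library 2 and 0.29 without 3-month KO library 3. Nars2, Sars2 and Yars2 among the mitochondrial genes (18.75%) and Kars among the cytosolic genes (5%) were higher in KO without overlap, where 5.02% of all genes were. No member was apart and lower at 3 months, where 5.22% of all genes were. Nars2, Yars2 and Kars were also apart and lower at 6 months in KO, and both results use the same 3-month KO libraries. Each genotype comparison shares a group with each age comparison, so their results are not independent.

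Sars2, the mitochondrial serine enzyme, stood at 5.87, 6.76 and 5.09 FPKM in 3-month WT and at 10.7, 12.9 and 8.27 in 3-month KO (log2 difference 0.74, SE 0.46, adjusted p = 0.789). Each KO library was above each WT library. Nars2 stood at 2.89, 4.39 and 4.33 FPKM in WT and at 6.32, 6.23 and 7.89 in KO, with no overlap (log2 difference 0.69, SE 0.54, adjusted p = 0.814). Yars2 stood at 25.1, 23.7 and 27.3 FPKM in WT and at 31, 37 and 27.5 in KO, with the lowest KO and the highest WT library nearly level. Rars2, the mitochondrial arginine enzyme, had a WT mean of 29.8 ± 12.2 FPKM and a KO mean of 39.98 ± 10.01 FPKM, with overlap, as had Iars2, the isoleucine enzyme, with means of 6.54 ± 4.12 and 8.57 ± 2.35 FPKM. Among cytosolic genes the smallest p values belonged to Sars, Wars, Yars and Vars, all with overlapping groups. For Sars the WT mean was 25.4 ± 8.41 FPKM and the KO mean 35.9 ± 5.59 FPKM (log2 difference 0.52, SE 0.28, adjusted p = 0.768), and for Wars they were 10.8 ± 4.06 and 19.3 ± 5.89 FPKM (0.79, SE 0.48, adjusted p = 0.782).

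At 6 months mitochondrial genes split 9 above and 7 below 0 (median 0.01), and cytosolic genes 16 above and 4 below (median 0.20), where 51.5% of all genes lay above 0. That cytosolic median ran from -0.02 without 6-month WT library 3, the library in which 12 of the 20 were at their lowest, to 0.37 without 6-month WT library 1. Cars and Mars2 were higher in KO without overlap (5% of the cytosolic and 6.25% of the mitochondrial genes, against 3.79% of all genes), and Nars and Wars2 were lower (5% and 6.25%, against 3.01%). Cars stood at 7.37, 7.36 and 3.53 FPKM in WT while the KO values were 7.98, 8.5 and 9.85 FPKM (log2 difference 0.52, SE 0.52, adjusted p = 0.9998). Mars2 in KO was 0.769, 0.605 and 3.63 FPKM, with library 3, the one with the highest sums of theca and oocyte markers, well above the others. Wars, the cytosolic gene with the smallest p, measured 14.2, 8.8 and 2.42 FPKM in WT, and its KO values were 12.1, 11.6 and 12.3 FPKM, so the WT libraries spread around close KO values (log2 difference 0.70, SE 0.48). Qars, the glutamine enzyme, averaged 20.4 ± 6.3 FPKM in the WT group and 25.4 ± 4.11 FPKM in the KO group, with overlap, and its log2 difference of 0.34 turned to -0.057 without the 3 libraries highest in markers of other cells. Wars2, the mitochondrial tryptophan enzyme, stood at 2.43, 2.42 and 3.61 FPKM in WT and at 2.3, 2.08 and 1.1 in KO. Sars2 was again higher on average, at 5.54 ± 3.78 FPKM in WT and 8.57 ± 0.829 in KO, with overlap and with WT library 3 at 1.23 FPKM. Its log2 difference of 0.79 (SE 0.46) at 6 months was 0.14 without that WT library and 0.08 without the 3 libraries highest in markers of other cells.

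**Figure D5:**
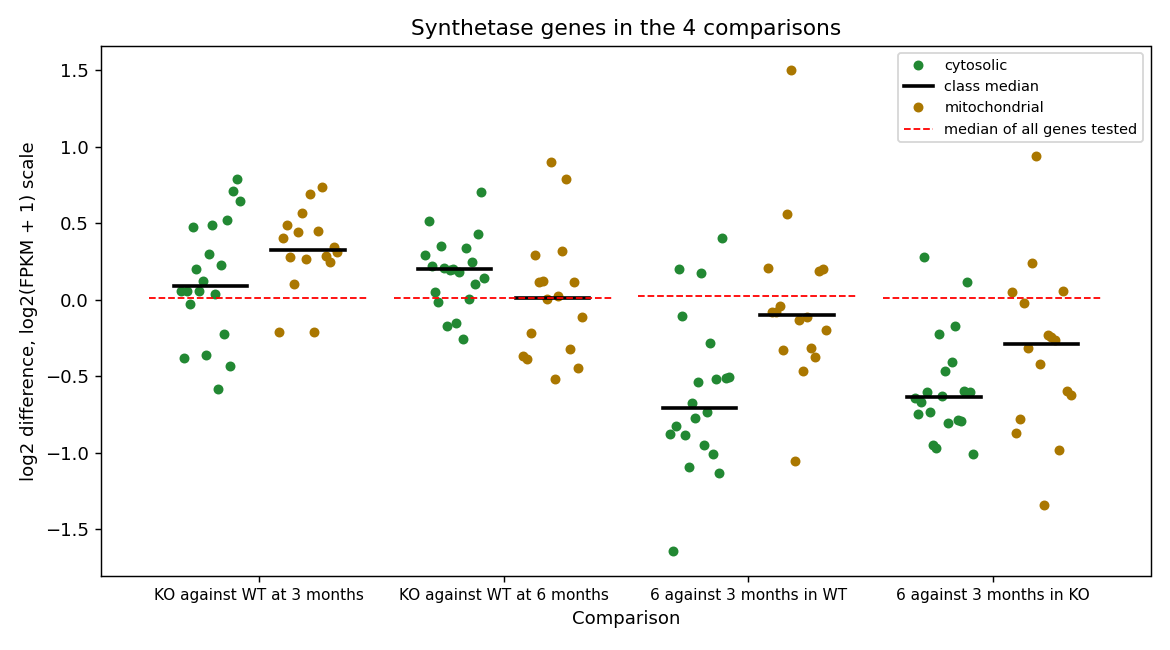
Log2 difference on the log2(FPKM + 1) scale (vertical axis) of each cytosolic and mitochondrial synthetase gene in the 4 comparisons (horizontal axis), with black bars for class medians and a dashed line for the median of all genes tested. Cytosolic medians lie at -0.71 and -0.64 in the age comparisons and at 0.09 and 0.20 in the genotype comparisons, and no point passed the adjusted threshold.

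Whether the effect of ClpP loss differed between ages was tested as an interaction in limma, and no member passed (smallest adjusted p 0.9998), where 0.00893% of all genes did. Cars had the largest cytosolic interaction (log2 0.90, SE 0.74) and Nars2 the largest mitochondrial one (log2 -1.21, SE 0.76). The median was 0.13 for the cytosolic and -0.24 for the mitochondrial genes. The cytosolic median turned to -0.04 when libraries were scaled to a common sum without small RNA, where the median of all genes was -0.13, and to -0.21 without the 3 libraries highest in markers of other cells. With 1 library left out the cytosolic median ran from -0.18, without 3-month WT library 1, to 0.28, without 6-month WT library 1.

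Promoters of members were searched for the composite element bound by ATF4 with C/EBP proteins, because many cytosolic synthetase genes are textbook ATF4 targets. The motif TGATGNAAN was sought on both strands, in windows from 250 bases before to 50 bases after the RefSeq start (GRCm38.p6). Windows were found for 13 cytosolic and 14 mitochondrial genes. They were not found for Cars, Hars, Lars, Nars, Rars, Vars, Wars, Hars2 and Pars2. The motif was present in 5 of the 13 cytosolic genes (38.5%) and in 0 of the 14 mitochondrial genes, and in 3.95% of all 32851 windows. A gene was counted when any of its windows held a match, while 3.95% is a share of single windows, so the units differ. The 5 genes are shown with matches in capitals, in 5′ to 3′ direction of the gene. The longer stretches are the 150 bases before the start, for Aars at chr8:111033692-111033841 (plus strand), Gars at chr6:55037851-55038000 (plus strand) and Tars at chr15:11399659-11399808 (minus strand). The others are 30 bases across the start, for Iars at chr13:49682126-49682155 and Yars at chr4:129189896-129189925, both on the plus strand.
Aars: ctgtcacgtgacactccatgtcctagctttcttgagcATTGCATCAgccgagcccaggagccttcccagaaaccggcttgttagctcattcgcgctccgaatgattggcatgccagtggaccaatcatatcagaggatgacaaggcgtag
Gars: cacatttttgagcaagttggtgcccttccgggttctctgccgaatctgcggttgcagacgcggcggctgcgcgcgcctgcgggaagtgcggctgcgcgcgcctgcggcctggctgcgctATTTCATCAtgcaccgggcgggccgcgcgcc
Tars: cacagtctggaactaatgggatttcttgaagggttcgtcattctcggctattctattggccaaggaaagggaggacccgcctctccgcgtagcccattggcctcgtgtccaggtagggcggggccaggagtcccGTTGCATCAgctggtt
Iars: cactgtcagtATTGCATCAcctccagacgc
Yars: cgagctcagcTGATGCAACccgacgggact

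Counting the base before the start as -1 and the start as 1, the matches began at -113 in Aars, -31 in Gars, -16 in Tars, 7 in Iars and 4 in Yars, and Aars had another at 9 to 17. Those in Aars, Gars, Iars and Tars lay on the minus strand of the gene and that in Yars on the plus strand. A match is a description of the letters and not evidence of binding. The 5 genes with a match had a median log2 difference of -0.88 for 6 against 3 months in WT and -0.64 in KO, and all 5 lay below 0 in both. The 8 cytosolic genes with a window and no match had medians of -0.52 and -0.65, with 7 of 8 below 0 in both. Gars stood at 157, 93.7 and 47 FPKM in 3-month WT and at 60.9, 44.2 and 25.4 in 6-month WT (log2 difference -1.09, SE 0.42). Aars, the alanine enzyme, stood at 35.3, 24 and 7.39 FPKM and then at 12.6, 9.76 and 7.35, and Iars, the isoleucine enzyme, at 26.1, 20 and 5.72 FPKM and then at 8.96, 9.24 and 6.49. In these genes 3-month WT library 1 was highest and library 3 of that group lay within or below the range of the 6-month values.

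Of the 16 genes listed for the integrated stress response all were tested and none passed in any comparison. Atf4 itself measured 694, 445 and 175 FPKM in libraries 1, 2 and 3 of 3-month WT, and between 133 and 278 FPKM in the other 9. Aars, Gars, Iars, Tars and Yars, the genes with a match, fell in the same order over those WT libraries. So did Dars, Eprs, Kars, Mars and Sars, which had a window and no match, but not Farsa, Farsb and Qars. The summed FPKM of the cytosolic genes also fell in that order, and a link to Atf4 was not tested. Asns, which makes asparagine, stood at 209.96, 110.3 and 34.3 FPKM in 3-month WT and at 33.9, 19.2 and 12.9 in 6-month WT (log2 difference -2.13, SE 0.62, adjusted p = 0.664). Slc3a2, the heavy chain of amino acid transporters, averaged 173 ± 73.7 and 72.4 ± 11.4 FPKM, and Eif4ebp1, a repressor of translation initiation, 837 ± 313 and 364 ± 43.9 FPKM (SD, n = 3). The list lay below 0 in 14 of 16 genes for 6 against 3 months in WT (median -0.997), where 51.9% of all genes lay above 0. In KO 9 of 16 lay below 0 (median -0.09), where 50.8% of all genes lay above 0, and that median turned to 0.22 without 3-month KO library 3, 0.12 without 6-month KO library 2 and 0.08 without 6-month KO library 1. For KO against WT at 3 months 12 of 16 lay below 0 (median -0.50), but 8 of 16 did without 3-month WT library 1 (median 0.03), and the median was -1.11 without 3-month WT library 3. Nupr1, a stress-induced chromatin regulator, was the gene of that list with the smallest p there, at 3637, 2656 and 1204 FPKM in WT and 113, 202 and 190.4 FPKM in the KO group, without overlap (log2 difference -3.79, SE 0.69, adjusted p = 0.397). For KO against WT at 6 months 13 of 16 genes of the list lay above 0 (median 0.29), where 51.5% of all genes did. Without 6-month WT library 3 it was 8 of 16 (median 0.02). For the interaction 15 of 16 lay above 0 (median 0.81, and 0.35 without 3-month WT library 1), where 50.8% of all genes did. The KO against WT comparison at 3 months, that for age in WT and the interaction share the 3-month WT libraries. Their values are not independent of each other.

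Partners of the synthetases were taken from 6 listed groups of tRNA charging genes, and none of these genes passed in any comparison. The scaffold of the multisynthetase complex is made of Aimp1, Aimp2 and Eef1e1. Aimp2 stood at 55, 95.4 and 98.2 FPKM in 3-month WT and at 122.7, 128 and 101 in 3-month KO, apart by a narrow margin, and Aimp1 averaged 99.8 ± 16 FPKM in 3-month KO and 70.8 ± 8.62 in 6-month KO (SD, n = 3). Other genes of mitochondrial tRNA charging include Mtfmt, which formylates the initiator, and Qrsl1, Pet112 and Gatc, the subunits of the amidotransferase that completes glutamine tRNA in place of a direct glutamine enzyme. For KO against WT at 3 months Gatc stood at 17.6, 16.8 and 25.7 FPKM in WT and at 35.4, 33.3 and 39 in KO without overlap (log2 difference 0.83, SE 0.28, adjusted p = 0.664), and at 6 months it averaged 20.7 ± 3.72 and 22.9 ± 6.19 FPKM.

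Tarsl2, a relative of the threonine enzyme, had the lowest interaction p among the charging lists. It stood at 3.29, 2.39 and 4.68 FPKM in 3-month WT and at 10.1, 6.72 and 5.45 in 3-month KO, and at 7.32, 5.75 and 4.95 in 6-month WT and 6.03, 3.75 and 1.6 in 6-month KO. KO libraries were the higher at 3 months and on average the lower at 6 months (interaction log2 -1.56, SE 0.56, adjusted p = 0.9998). The factors that deliver charged tRNA to ribosomes were among the most abundant of these genes. Eef1a1, the cytosolic carrier of charged tRNA, lay between 1709 and 2653 FPKM in all libraries, and Tufm, its mitochondrial counterpart, between 26.3 and 103 FPKM. All 6 of these factors lay below 0 for 6 against 3 months in WT (median -0.20) and 5 of 6 in KO (median -0.32). Xpot, which exports tRNA from the nucleus, averaged 4.39 ± 0.382 FPKM in 3-month WT and 5.85 ± 0.363 in 6-month WT, apart and higher at 6 months (log2 difference 0.35, SE 0.27, adjusted p = 0.791).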

How the data were processed

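Per the labels' protocols, cDNA from 100 cumulus cells per sample was amplified by Smart-Seq2 and read as 75 bp pairs. The unit of the deposited values is FPKM, computed by the authors, per the submitters' processing notes, with Cufflinks 1.2.1 after cutadapt, FastQC, TopHat2 2.0.10 and Bowtie2 2.1.0 (SAMtools 0.1.18; GRCm38/mm10). The gene annotation and any use of strand are not given in the sources used here. Of 66 library pairs 0 were identical.

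Genes reaching 1 FPKM in 3 or more libraries (11196) were analysed as log2(FPKM + 1), which understates differences of low genes. The limma 3.58.1 fit (R 4.3.3) used 4 group means, 8 residual and 3.9 prior degrees of freedom and a variance trend, with 2-sided tests adjusted by Benjamini and Hochberg over all genes tested. It was tested on simulated data. P-values measure the spread between these libraries. Python 3.11.15, numpy 2.4.6, pandas 2.3.3 and matplotlib 3.10.9 served for the rest. The planned protein comparison of partners was not made. Results for 1 listed gene are not reported here.

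The members and gene lists were chosen with earlier results of these data known. The naming rule gave values per library for Clpp, for up to 4 members per class and comparison with the smallest unadjusted p and for the ends of the order of mean level, and up to 3 genes per pathway list and comparison. Aars, Eprs, Gars, Hars, Kars, Mars, Nars and Atf4 fell outside that rule and were named after their values were seen, and the multisynthetase complex grouping was also made then.

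Libraries with the same number deviated from their groups' means with correlations of 0.158, 0.373 and 0.465 (genotype at 6 months) and 0.114, 0.394 and 0.653 (age in KO). A fit with the replicate number as a block, over all groups, was made only as an alternative. Such a pairing, inferred from the data alone, is uncertain. In both comparisons library 1 matched library 2 of the other group best. The libraries numbered 3 had the highest sums of blood and leukocyte markers, whose part in the correlations was not tested. Printed SE and p are from the fit without the block. Elsewhere at least 1 correlation was under 0.1.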

Additional observations from a re-analysis of the deposited data

How the results depend on the processing

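No synthetase passed the threshold in any of the 170 combinations of class, comparison and alternative, and the smallest adjusted p of a member in limma was 0.126, without 3-month WT library 3. Of 673 alternative values over 40 named differences, 672 kept direction and side of the threshold. The 40 had been chosen for the smallest unadjusted p of their class and comparison, and none passed in the main fit. Keeping the side of the threshold thus means only that they again did not pass. The alternatives also reuse the same libraries. Qars, the glutamine enzyme, reversed to -0.057 for KO against WT at 6 months without the 3 libraries highest in markers of other cells, an alternative chosen after seeing the data. With the replicate block 0 members passed in each comparison, and the smallest adjusted p was 0.467. Over all genes, calls for KO against WT at 3 months numbered 1, but 0 with a pseudocount of 0.1 and 0 without the filter on low values, and 0 to 9 when 1 library was left out (9 without 3-month WT library 3). For age in WT they numbered 1, but 2 with the groups compared alone and 1 to 9 with 1 library left out (9 without 3-month WT library 3). For age in KO they numbered 2, and 4 with the groups compared alone. For the interaction they numbered 1, but 0 without the filter and 0 to 3 with 1 library left out. The mitochondrial median for the interaction was -0.24, and -0.42 with a filter at 5 FPKM, where fewer genes were tested, and ran from -0.47 (without 6-month WT library 3) to -0.10 with 1 library left out. With 1 library left out, the mitochondrial median for KO against WT at 6 months ran from -0.27 (without 6-month KO library 1) to 0.19, and that for age in WT from -0.23 to 0.091 (without 6-month WT library 3). For these changes the cause was not tested unless stated. FPKM give no counts, so no interval for counting error could be set on low genes.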
